A study of Homo sapiens with 30 samples.

Results

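The genes described here are 10 immediate early genes chosen by name: FOS, FOSB, JUN, JUNB, JUND, EGR1, EGR2, EGR3, IER2 and DUSP2. All their probes on an Illumina human bead array of 47231 probes were taken, whatever their values, out of 20046 named genes. The probe annotation used here named 10 probes for 9 of the 10 genes, EGR3 having 2 probes and EGR2 none. Expression had been measured on 30 arrays from TMD8 and U2932, human cell lines from diffuse large B cell lymphoma of the activated B cell-like type. The treatments were YK-S and YK-R, the mirror-image forms of the small molecule YK-4-279, which was made to block transcription factors of the ETS family, and the solvent DMSO. Each of the 10 groups held 3 arrays. TMD8 cells had been given YK-S or YK-R for 8 h or 4 h, and U2932 cells YK-S, YK-R or DMSO for 8 h or 4 h. None of the 30 arrays came from TMD8 cells given DMSO. In TMD8 a change with time under a compound therefore cannot be told apart from time alone. No dose is stated in the labels. Nothing in them tells separate cultures from repeat hybridisations within a group, so p-values may measure technical spread.

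Immediate early genes are transcribed within minutes of a stimulus from factors already present in the cell, and their short-lived transcripts then decline. FOS and JUN proteins pair through leucine zippers to form AP-1, while EGR proteins are zinc finger factors that bind GC-rich sites. ETS-family factors partner with serum response factor at the promoters of several of these genes, and in B cells the antigen receptor induces EGR1, FOS and DUSP2.

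The promoters are shown of the 5 genes on which the results turn: JUN and DUSP2 for TMD8, FOSB and JUND for U2932, and EGR1 for the difference between the lines. Each line gives the 250 bases before the start of the gene from RefSeq (GRCh38.p14), 5′ to 3′ on the strand of the gene, with motif matches in capitals. The windows are JUN at chr1:58784048-58784297 (minus strand), DUSP2 at chr2:96145441-96145690 (minus strand), FOSB at chr19:45467746-45467995 (plus strand), JUND at chr19:18281623-18281872 (minus strand) and EGR1 at chr5:138465229-138465478 (plus strand).
JUN: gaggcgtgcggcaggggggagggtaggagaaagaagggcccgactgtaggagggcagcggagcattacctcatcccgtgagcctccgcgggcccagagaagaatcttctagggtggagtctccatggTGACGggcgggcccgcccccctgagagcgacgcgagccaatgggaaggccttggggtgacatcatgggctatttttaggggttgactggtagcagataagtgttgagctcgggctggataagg
DUSP2: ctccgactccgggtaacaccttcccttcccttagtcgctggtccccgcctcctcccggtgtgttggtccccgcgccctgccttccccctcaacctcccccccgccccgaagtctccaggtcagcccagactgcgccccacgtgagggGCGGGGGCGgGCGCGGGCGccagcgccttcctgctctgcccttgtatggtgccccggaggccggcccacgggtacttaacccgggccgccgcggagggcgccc
FOSB: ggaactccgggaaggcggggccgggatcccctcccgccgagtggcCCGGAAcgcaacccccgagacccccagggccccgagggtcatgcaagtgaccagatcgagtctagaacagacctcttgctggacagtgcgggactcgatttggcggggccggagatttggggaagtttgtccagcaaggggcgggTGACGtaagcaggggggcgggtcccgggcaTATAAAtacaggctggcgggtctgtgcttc
JUND: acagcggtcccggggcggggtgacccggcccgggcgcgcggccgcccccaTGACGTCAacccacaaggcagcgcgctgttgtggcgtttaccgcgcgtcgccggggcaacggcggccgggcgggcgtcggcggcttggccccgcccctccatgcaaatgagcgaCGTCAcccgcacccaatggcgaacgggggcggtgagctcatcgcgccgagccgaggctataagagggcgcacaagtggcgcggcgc
EGR1: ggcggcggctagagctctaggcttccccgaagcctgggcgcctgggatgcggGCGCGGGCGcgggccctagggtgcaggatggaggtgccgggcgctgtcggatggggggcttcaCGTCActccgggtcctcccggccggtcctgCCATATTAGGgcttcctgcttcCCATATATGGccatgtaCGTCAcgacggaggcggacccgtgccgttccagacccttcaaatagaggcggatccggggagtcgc

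Motifs were searched on both strands over 300 bases, with 50 bases after the start included, in 9 member genes with 11 windows, of which EGR2 has 3 and EGR3 none, and in 35116 promoters of the same length. The CArG box, bound by serum response factor, was found in 1.29% of all promoters; among the members EGR1 held 2, at bases -105 to -96 and -83 to -74, and EGR2 held 1. The cyclic AMP response element TGACGTCA was found in 1.85% of promoters and among the members in JUND, at bases -200 to -193. Its shorter form TGACG, which lies within it, was in 24.6% of promoters and in 8 of the 9 member genes, DUSP2 being the exception. The EGR site GCGNGGGCG was in 9.43% of promoters and in EGR1, EGR2 and DUSP2, where 2 matches lay at -103 to -95 and -93 to -85. The ETS core CCGGAA, in 17.2% of promoters, was found in FOSB and IER2, and TATAAA, in 11.5% of promoters, in FOS, FOSB and JUNB. The AP-1 site TGANTCA, in 7.71% of promoters, was in none of the 11 windows. These matches describe the letters in the windows only.

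Mean signals ran from 419.6 to 494.1 on the 12 TMD8 arrays and from 85.4 to 340.9 on the 18 U2932 arrays, of which 8 lay under 200. Probes above background made up 46.6% to 56.1% of all probes on TMD8 arrays and 24.7% to 50.9% on U2932 arrays. The submitters deposited both signals and log2 values, and an array carried the same sample name in both tables for 12 of 12 TMD8 arrays and for 0 of 18 U2932 arrays. Only 5 of those 18 arrays fell in the same group under both names, and which names are right was not settled. Member comparisons within U2932 and with TMD8 are therefore given by both sets of names, the signal table's first. Of 6 B cell markers with a probe, 5 were above background on every array of both lines; PAX5 was so on 8 of 12 TMD8 arrays and on 0 of 18 U2932 arrays. All 5 markers of the activated B cell-like type were above background on every array. No T cell marker of 6 was so on every array of either line, though CD2 was on 11 of 12 and CD8A on 9 of 12 TMD8 arrays. Of 6 myeloid markers CD14 and MPO were above background on all TMD8 arrays. None was on all U2932 arrays, where CD14 was on 16 of 18 and LYZ on 12 of 18. Of 6 stromal or epithelial markers EPCAM was above background on all arrays of both lines, with medians of 4.78 in TMD8 and 9.26 in U2932. COL1A1 was on 11 of 12 TMD8 arrays.

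The levels that follow are background-corrected, quantile-normalized signals on a log2 scale, and levels of different probes are not compared. A probe was kept for testing in a line if it was above background on all arrays of at least 1 group, which left 23718 probes in TMD8 and 20858 in U2932. Of the 10 member probes 7 were kept in TMD8 (FOSB, JUN, JUNB, JUND, EGR1, IER2 and DUSP2) and 8 in U2932 (the same without JUN, and both EGR3 probes). FOS, the gene that gave its family its name, was not kept in either line, being above background on 0 of 12 TMD8 and 8 of 18 U2932 arrays. In these bulk samples fewer cells expressing a gene and less RNA per cell cannot be told apart.

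**Figure D1:**
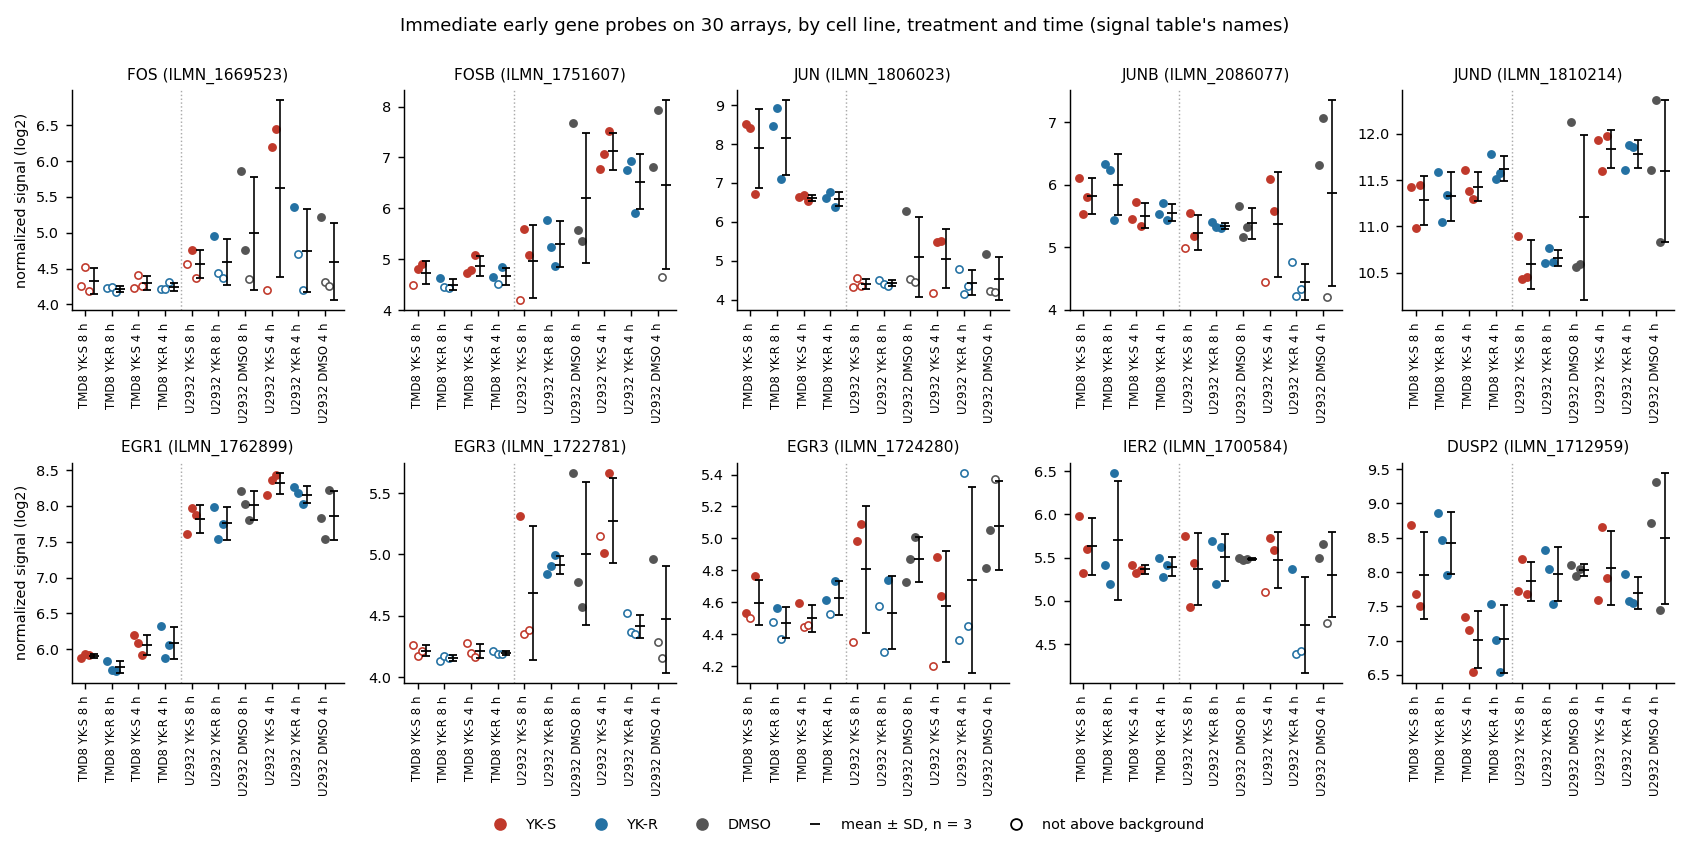
Normalized signal (log2, vertical axis) of the 10 member probes on each of the 30 arrays, by line, treatment and time under the signal table's names; filled points are above background, open points are not, and bars give the mean ± SD of 3 arrays. JUN lies higher in TMD8 and EGR1 higher in U2932, while the U2932 groups of FOS, FOSB and JUNB hold arrays that lie far apart.

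JUN, a core subunit of AP-1, stood higher at 8 h than at 4 h on most TMD8 arrays, whichever form of the compound the cells had received, but the difference was not called. With YK-S it measured 8.53, 8.42 and 6.72 log2 at 8 h, against 6.64, 6.68 and 6.54 at 4 h. With YK-R it measured 8.48, 8.94 and 7.09 at 8 h, against 6.61, 6.76 and 6.39 at 4 h. Within each form the 3 arrays at 8 h lay above the 3 at 4 h, but replicate 3 was the lowest of the 8 h arrays in both forms and lay near the 4 h level. On the linear scale of the deposited signals these were 978, 918 and 306 with YK-S and 880, 1149 and 419 with YK-R at 8 h, against 274 to 296 and 293 to 300 at 4 h. The change from 4 h to 8 h was log2 1.27 with YK-S (SE 0.45, limma adjusted p = 0.86) and 1.58 with YK-R (SE 0.45, limma adjusted p = 0.27). Without 1 array it ran from 0.95 to 1.85 and from 1.20 to 2.12, and it passed in none of these fits. In order of level the TMD8 groups were YK-R 8 h (8.17 ± 0.96), YK-S 8 h (7.89 ± 1.01), YK-S 4 h (6.62 ± 0.07) and YK-R 4 h (6.59 ± 0.18; SD, n = 3 each), and neither pair of equal time differed beyond its spread.

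DUSP2, a nuclear phosphatase that switches off MAP kinases, was also higher at 8 h than at 4 h with either form, and was not called. It measured 8.68, 7.68 and 7.50 at 8 h with YK-S, against 7.35, 7.15 and 6.55 at 4 h. With YK-R it measured 8.86, 8.47 and 7.95 at 8 h, against 7.53, 7.01 and 6.54 at 4 h. In both forms the times did not overlap. The differences were log2 0.94 (SE 0.33, limma adjusted p = 0.86) and 1.40 (SE 0.33, limma adjusted p = 0.17), and neither passed. Within every group the levels fell in the order listed, which the fit did not model. JUNB, an AP-1 subunit of weaker activity than JUN, measured 6.10, 5.54 and 5.80 with YK-S and 6.33, 6.24 and 5.44 with YK-R at 8 h, against 5.45, 5.72 and 5.34 and 5.52, 5.70 and 5.43 at 4 h. Its times overlapped in both forms, with differences of 0.31 and 0.45 (SE 0.21 each).

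**Figure D2:**
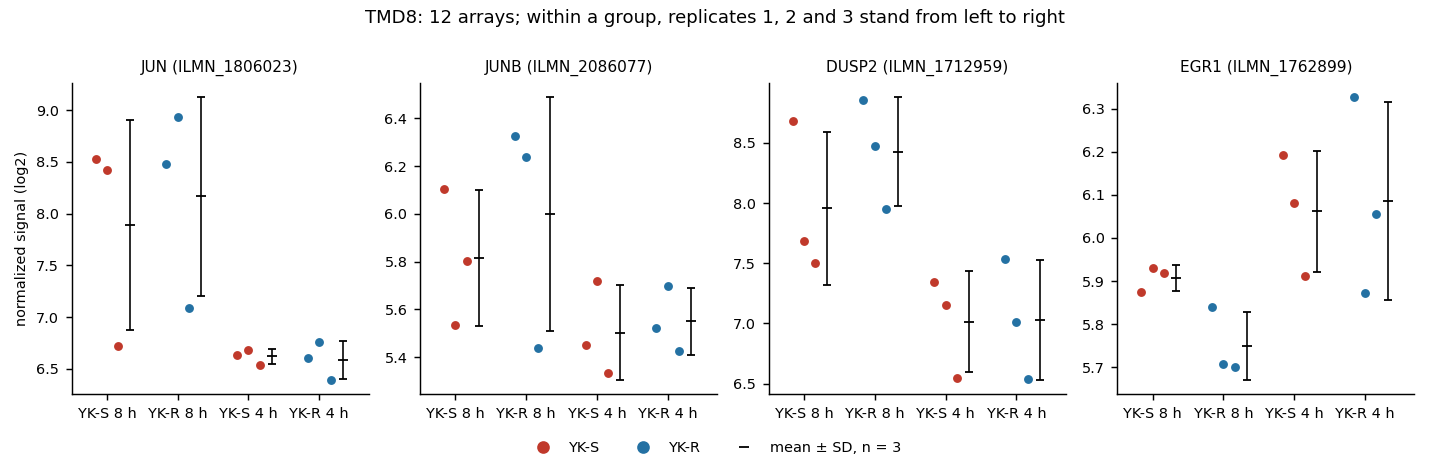
Normalized signal (log2) of JUN, JUNB, DUSP2 and EGR1 on the 12 TMD8 arrays, with YK-S in red, YK-R in blue and the mean ± SD of 3 arrays in black. JUN stood at 8.42 to 8.94 on 4 of 6 arrays at 8 h and at 6.39 to 6.76 on all 6 at 4 h.

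EGR1, the zinc finger factor used as a readout of MAP kinase signalling, ran the other way by a small amount. It measured 5.87, 5.93 and 5.92 with YK-S and 5.84, 5.71 and 5.70 with YK-R at 8 h, against 6.19, 6.08 and 5.91 and 6.33, 5.87 and 6.06 at 4 h. The difference of 8 h minus 4 h was -0.15 with YK-S and -0.34 with YK-R (SE 0.13 each, limma adjusted p = 0.98 and 0.44). JUND, the AP-1 subunit that resting cells already hold, stayed between 10.98 and 11.78 on the 12 arrays, with differences of -0.15 and -0.30. FOSB, the FOS relative with a long-lived splice form, lay near background (4.43 to 5.08), and the nuclear protein IER2 lay at 5.20 to 5.98 on 11 arrays and at 6.48 on YK-R 8 h replicate 3.

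In TMD8 0 of 7 member probes passed the test of 8 h minus 4 h with YK-S, where 0.0464% of all kept probes passed, and 0 of 7 with YK-R, where 0.101% did (limma, Benjamini-Hochberg over all kept probes, adjusted p under 0.05). At an unadjusted p under 0.05 there were 2 members with YK-S and 3 with YK-R. The 3 arrays at 8 h did not overlap the 3 at 4 h for JUN and DUSP2 with YK-S, where 10.3% of kept probes did so, and for JUN, EGR1 and DUSP2 with YK-R, where 14.8% did. Taken over both forms, 0 of 7 member probes had 6 arrays at 8 h apart from 6 at 4 h, against 1.62% of kept probes. On simulated data of this design for YK-S, 84% of probes changed by log2 1 and 98% of those changed by log2 2 were recovered, with 20 unchanged probes called beside these, over the spread of all probes; the interval of JUN reached 0.96 to either side, and that of EGR1 0.28.

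YK-S and YK-R were compared at the same time in TMD8, the question being whether the mirror-image forms act differently. At 8 h 0 of 7 members passed (0.0548% of kept probes), and at 4 h 0 of 7 (0.00422%), with 0 members at an unadjusted p under 0.05 at either time. DUSP2 had the largest difference at 8 h, log2 -0.47 for YK-S minus YK-R, with an interval of -1.18 to 0.23. JUN differed by -0.28 (-1.23 to 0.68) at 8 h and by 0.03 (-0.92 to 0.99) at 4 h. EGR1 was at 0.16 (-0.12 to 0.44) at 8 h, and at -0.02 (-0.30 to 0.26) at 4 h. At 8 h the 3 YK-S arrays of EGR1 lay above the 3 YK-R arrays, 1 of 7 members that did not overlap, where 8.31% of kept probes did not. FOSB was at 0.24 and 0.20. The intervals of JUN and DUSP2 leave room for differences of 1 log2 unit or more at 8 h, so the forms are not shown to act alike on these genes. The difference between forms in the change with time passed for 0 of 7 members and for 0% of kept probes (0 members at an unadjusted p under 0.05), JUN being at -0.31 (-1.66 to 1.04).

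**Figure D3:**
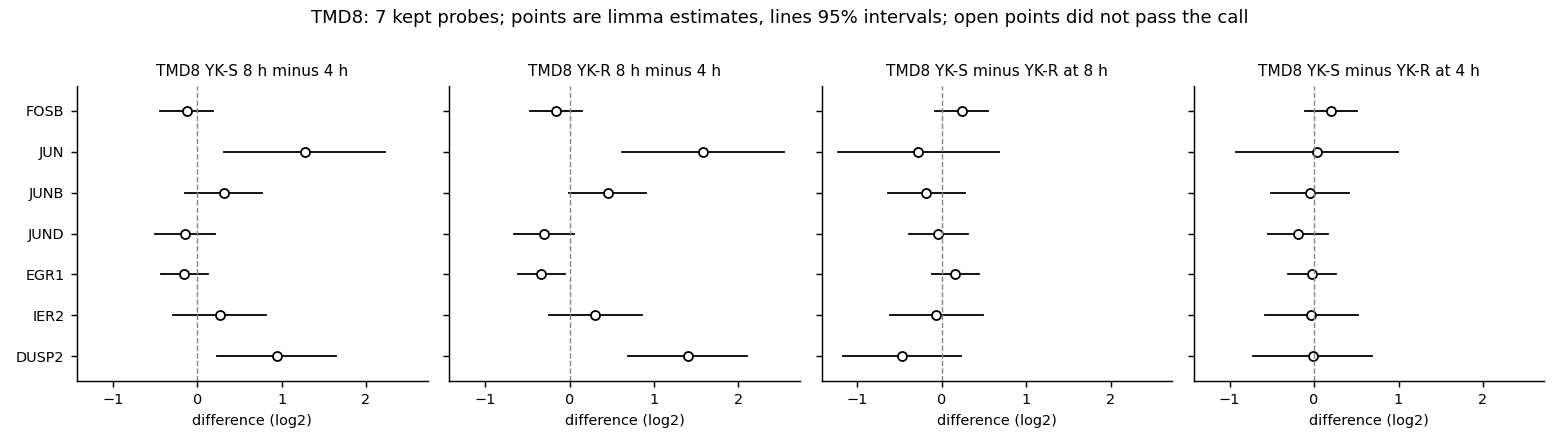
Log2 differences (horizontal axis) of the 7 kept member probes in TMD8, for 8 h minus 4 h within each form and for YK-S minus YK-R at each time; points are limma estimates, lines 95% intervals, and open points did not pass. JUN and DUSP2 lie right of 0 in both comparisons of time, and all intervals of YK-S minus YK-R include 0.

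Of 33 other immediate early genes 25 were tested and 0 passed with either form. Their median difference of 8 h minus 4 h was 0.13 with YK-S and 0.27 with YK-R, against -0.01 and -0.02 over all probes, with 18 and 17 of 25 above 0. KLF2, a zinc finger factor of lymphocyte quiescence, had the lowest p, at 0.77 (limma adjusted p = 0.19) and 0.84 (limma adjusted p = 0.072). MYC followed at 0.82 and 1.17. Of 9 tested partners of AP-1 (medians 0.12 and -0.05), 12 MAP kinase feedback genes (0.06 and -0.02) and 18 upstream regulators (-0.14 and -0.04) 0 passed. Among them BATF, an AP-1 partner of B cells, was at 0.82 and 1.30, the ETS factor ETV5 at -0.64 and -0.56, and NAB2 and NAB1, co-repressors that bind EGR proteins, at -0.67 and -0.38 and at -0.39 and -0.54.

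The genes whose levels ran most like those of a member over the 12 TMD8 arrays were ranked by Pearson's r among 12445 named genes, as a description. For EGR1 they were GNRH1 (r = 0.93), TMEM209 (0.91), ZNF333 (0.90), SIGLEC10 (0.89) and OLMALINC (0.88). The same ranking for JUN and DUSP2, chosen after their values were seen, gave MYC, IL6, NFKBIA, SPIC and SGK1 for JUN (0.97 each) and CD69 (0.97), NFKBIZ (0.96), RAB11A (0.95), CDK5R1 (0.95) and MAP3K8 (0.94) for DUSP2. All points share the time and the arrays, and for JUN the r rests largely on the 4 high arrays at 8 h.

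In U2932, under the signal table's names, 0 of 8 member probes passed in any of the 9 comparisons of treatment or time. With YK-S against DMSO 0% of kept probes passed at 8 h and 0% at 4 h. With YK-R against DMSO the shares were 0% at 8 h and 2.92% at 4 h, and between YK-S and YK-R 0% at both times. For 8 h minus 4 h they were 0% with YK-S, 0% with YK-R and 0.00959% with DMSO. Members at an unadjusted p under 0.05 numbered 3 and 2 in the comparisons of time with YK-S and YK-R, 1 in each comparison with DMSO at 4 h and 2 in YK-S against YK-R at 4 h; the other comparisons had 0. The spread between arrays was wide, and intervals of the members reached 0.46 to 1.44 to either side. On simulated data of the U2932 design for YK-S at 8 h against 4 h, 24% of probes changed by log2 1 and 76% of those changed by log2 2 were recovered, with 7 unchanged probes called, so changes of log2 1 could mostly not be detected there.

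JUND with all 3 treatments, and FOSB with YK-R, fell with time in U2932 under the value table's names, and no such difference passed under the signal table's names. By the signal table's names JUND measured 10.89, 10.43 and 10.45 with YK-S at 8 h, against 11.93, 11.60 and 11.97 at 4 h. With YK-R it measured 10.60, 10.76 and 10.61 at 8 h, against 11.61, 11.88 and 11.86 at 4 h. With DMSO it measured 12.13, 10.56 and 10.59 at 8 h, against 11.61, 12.36 and 10.83 at 4 h. The times were apart with either form and overlapped with DMSO, where 21.9% (YK-S), 36.3% (YK-R) and 13.2% (DMSO) of kept probes were apart. The differences of 8 h minus 4 h were -1.24 with YK-S, -1.12 with YK-R and -0.50 with DMSO (SE 0.38 each, limma adjusted p = 0.24, 0.24 and 0.52). FOSB was at -2.16 with YK-S (SE 0.68, limma adjusted p = 0.25), -1.23 with YK-R and -0.26 with DMSO, none of them called. With arrays scaled by their medians JUND turned to 0.80 with YK-R and 1.53 with DMSO, neither called, as the median of all probes moved to 1.18 and 1.02.

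Under the value table's names and with its deposited log2 values, the spread of both genes within the DMSO groups was smaller. Names and scale both differ between these spreads, so their parts cannot be told apart. The SD of JUND was larger with YK-R, at 0.21 against 0.09 at 8 h and 0.23 against 0.15 at 4 h. That of FOSB was larger with YK-S at 4 h, at 0.45 against 0.37. By the value table JUND measured 10.37, 10.67 and 10.37 with YK-S at 8 h, against 11.74, 11.65 and 11.62 at 4 h. Given YK-R it measured 10.60, 10.20 and 10.54 at 8 h, against 11.92, 12.16 and 11.70 at 4 h, and with DMSO 10.34, 10.38 and 10.22 at 8 h, against 11.36 on each array at 4 h. In all 3 treatments the times did not overlap, as 26.6% (YK-S), 18.7% (YK-R) and 27.9% (DMSO) of kept probes did not. JUND fell by 1.20 log2 with YK-S (limma adjusted p = 0.00021), by 1.48 with YK-R (limma adjusted p = 2.8e-05) and by 1.05 with DMSO (limma adjusted p = 0.00073; SE 0.13 each), and each call held without any 1 array. These were 1 of 8 members called with YK-S, 2 of 8 with YK-R and 1 of 8 with DMSO, where 3.73%, 5.5% and 1.1% of kept probes passed.

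In the value table FOSB measured 6.71, 6.25 and 6.60 with YK-S at 8 h, against 7.65, 7.26 and 6.76 at 4 h. Cells on YK-R had 6.44, 6.66 and 6.56 at 8 h, against 7.77, 7.96 and 7.17 at 4 h. It fell by 1.08 log2 with YK-R (SE 0.21, limma adjusted p = 0.0066), a call that held without any 1 array. For YK-S the difference was -0.70 (limma adjusted p = 0.069, and 0.032 at -0.94 without YK-S 4 h replicate 3), and with DMSO -0.68 (limma adjusted p = 0.14). The change with time differed between YK-S or YK-R and DMSO for 0 of 8 members under either set of names, where 0% of kept probes passed (limma; 1 member with YK-S under each set of names, and 1 with YK-R under the value table's, at an unadjusted p under 0.05). With the normalized signals of the signal table placed under the value table's names, JUND was again called in all 3 treatments, at -1.21, -1.47 and -1.06, and FOSB with YK-R at -2.29. Median scaling under the same names gave JUND at -0.20, -0.74 and -0.29 and FOSB at -0.81, -0.96 and -1.16, where no member and no other probe passed. The median of all probes moved there to 0.54, 0.46 and 0.41, and the SE was 0.82 for JUND and 0.78 for FOSB. Both settings were added after the data had been seen.

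Taken over the treatments, the 9 arrays at 8 h lay at 10.20 to 10.67 for JUND and at 6.25 to 6.71 for FOSB under the value table's names, against 11.36 to 12.16 and 6.76 to 7.96 on the 9 arrays at 4 h. Neither gene overlapped between times, as held for 2 of 8 member probes and 1.53% of kept probes. Under the signal table's names both genes overlapped, JUND lying at 10.43 to 12.13 at 8 h, against 10.83 to 12.36 at 4 h, as 0.221% of kept probes were apart. Array brightness moved with time: arrays with a mean signal under 200 were 2 of 9 at 8 h, against 6 of 9 at 4 h, by the value table's names, and 1 of 9, against 7 of 9, by the signal table's names. Within the brighter arrays by the value table's names JUND lay at 10.20 to 10.54 on 7 arrays at 8 h, against 11.36 to 11.92 on 3 at 4 h, and within the dim ones at 10.60 to 10.67 on 2, against 11.36 to 12.16 on 6. FOSB lay at 6.49 to 6.71 against 7.36 to 7.77 on the brighter arrays, and at 6.25 to 6.44 against 6.76 to 7.96 on the dim ones. Since the times were apart over all 18 arrays under these names, these splits had to be apart too. Under the signal table's names JUND lay at 10.43 to 12.13 on 8 brighter arrays at 8 h, against 11.60 to 11.97 on 2 at 4 h, and FOSB at 4.87 to 7.67, against 7.07 to 7.51, so that both overlapped. On the dim arrays by these names JUND was at 10.89 on 1 array at 8 h, against 10.83 to 12.36 on 7 at 4 h, and FOSB at 4.19, against 4.66 to 7.92. The part of array brightness in the differences of JUND and FOSB with time was not tested.

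**Figure D4:**
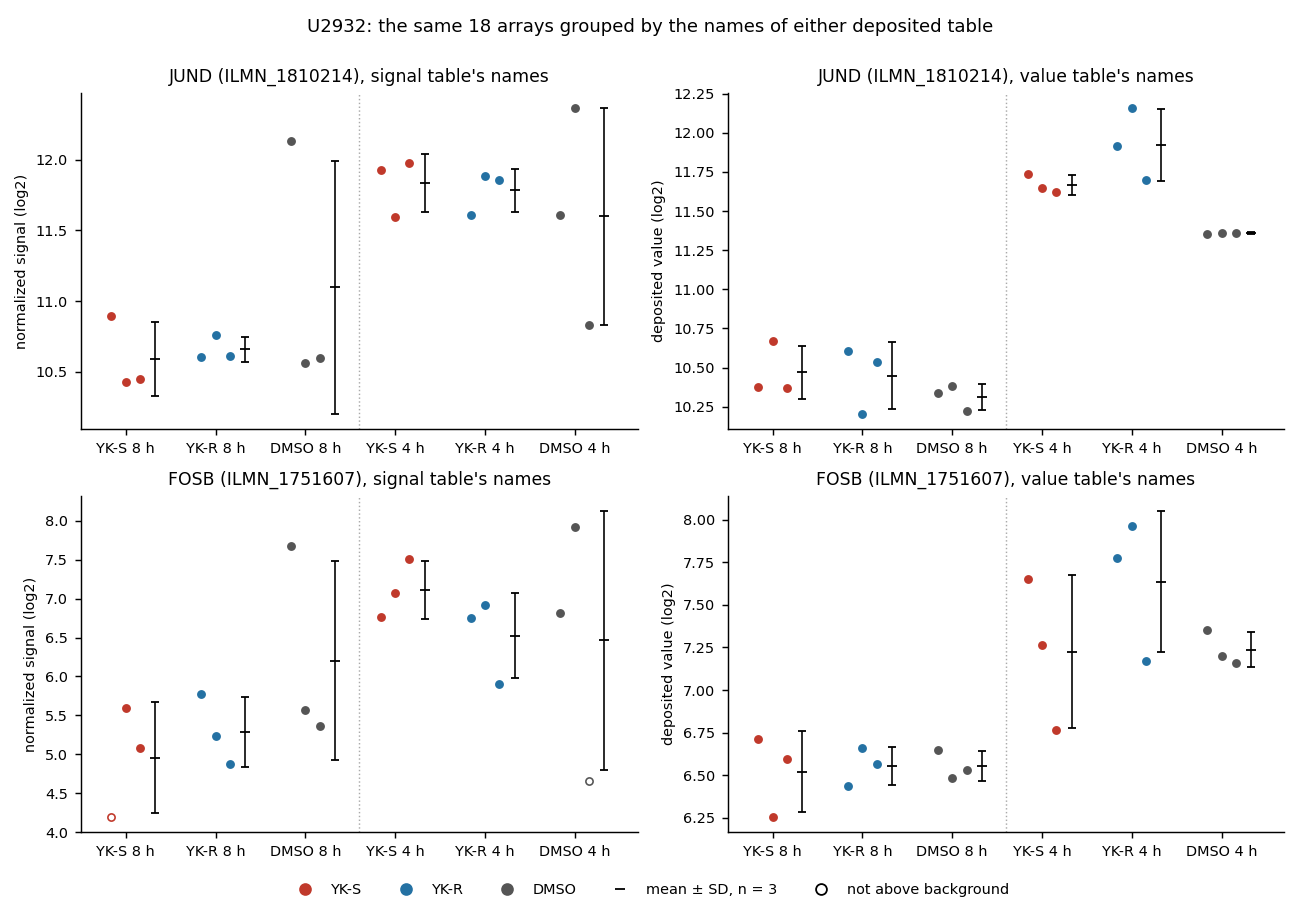
JUND and FOSB (log2, vertical axis) on the same 18 U2932 arrays, grouped by the names of the signal table (left, normalized signal) and of the value table (right, deposited value); points are arrays, open points at left are not above background, and bars give the mean ± SD of 3 arrays. At right the 9 arrays at 8 h lie below the 9 at 4 h for both genes, and at left the DMSO groups mix high and low arrays.

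Treatment differences of the members in U2932 were few. Under the value table's names JUND was log2 0.56 higher with YK-R than with DMSO at 4 h (SE 0.13, limma adjusted p = 0.035), the 1 of 8 members called where 1.86% of kept probes were. That call was lost without DMSO replicate 1, 2 or 3 or YK-R replicate 2 (limma adjusted p = 0.19, 0.079, 0.068 and 0.054). It was also lost with the normalized signals under the same names, at 0.54 (limma adjusted p = 0.16, 0% of kept probes called). JUND turned to -0.23, uncalled, with median scaling, as the median of all probes moved to -0.40. In the other 5 treatment comparisons 0 of 8 members and 0% of kept probes passed, with 2 members at an unadjusted p under 0.05 for YK-S against DMSO at 4 h and 0 in the rest. At 8 h JUND differed by 0.16 (-0.11 to 0.42) with YK-S and by 0.13 (-0.13 to 0.40) with YK-R from DMSO, and EGR1 by -0.06 (-0.41 to 0.28) and 0.03 (-0.32 to 0.37). Between YK-S and YK-R at 8 h JUND differed by 0.02 (-0.24 to 0.29) and EGR1 by -0.09 (-0.43 to 0.25). Under the signal table's names EGR3 was at 0.80 with YK-S minus DMSO and at 0.86 with YK-S minus YK-R at 4 h by probe ILMN_1722781, uncalled (limma adjusted p = 0.20 and 1.0) with no overlap, the 1 of 8 members apart where 12.9% and 9.87% of kept probes were. At 4 h ILMN_1722781 was above background on 2 of 3 arrays with YK-S, 1 with DMSO and 0 with YK-R. The other probe, ILMN_1724280, was lower with YK-S (mean 4.57) than with DMSO (5.08) or YK-R (4.74), so the probes of EGR3 disagree. Under the value table's names ILMN_1722781 had means of 6.47 with YK-S, 6.48 with DMSO and 6.52 with YK-R. By the signal table's names JUNB was at -1.43 with YK-R minus DMSO at 4 h (limma adjusted p = 0.12), its YK-R arrays at 4.76, 4.22 and 4.33, none above background, against 6.32, 7.07 and 4.20 with DMSO.

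Other immediate early genes of U2932 that passed with time under the value table's names were all lower at 8 h. With YK-S 4 of 25 tested passed, namely PPP1R15A (-1.42), which restarts translation after stress, MYC (-1.07), CSRNP1 (-0.87) and TIPARP (-0.56). With YK-R 5 passed, with PPP1R15A at -1.35, CSRNP1 at -0.84, MYC at -0.65 and GADD45B at -0.55, and with DMSO 2 passed, MYC at -0.98 and PPP1R15A at -0.76. The list's medians were -0.17, -0.10 and -0.11, against 0.02, 0.01 and 0.01 over all probes. One MAP kinase feedback gene of 12 passed with YK-S, the RAS pathway inhibitor SPRED1 at -0.69, and 1 upstream regulator of 17 passed with YK-R, the kinase MAP3K1 at -0.67. None of the 6 AP-1 partners did. Over all kept probes 3.73% passed with YK-S, 5.5% with YK-R and 1.1% with DMSO. With median scaling under the same names 0% of kept probes passed in each of these comparisons of time. With YK-R against DMSO at 4 h PPP1R15A was higher (0.68), and IER5 (-0.47) and the serum response factor partner ELK4 (-0.47) were lower; 0% of kept probes passed there with the normalized signals under the same names. Under the signal table's names 0 genes of these lists passed with time.

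FOS and JUN were highest on the same 3 U2932 arrays. The arrays that the signal table names YK-S 4 h replicates 2 and 3 and DMSO 8 h replicate 1 had FOS at 6.20, 6.45 and 5.86 and JUN at 5.48, 5.51 and 6.28. FOSB was at 7.07, 7.51 and 7.67 and JUNB at 6.08, 5.57 and 5.66 there, but both were highest on DMSO 4 h replicate 2, at 7.92 and 7.07. In the value table these 3 arrays are named DMSO 4 h replicate 1, YK-S 4 h replicate 1 and YK-R 4 h replicate 1. Over all 18 arrays FOS ran from 4.19 to 6.45 with a median of 4.63, and JUN from 4.15 to 6.28 with a median of 4.44. JUNB had an r of 0.70 with the share of probes above background over the 18 arrays, IER2 0.66, JUN 0.51 and FOS 0.44, against -0.30 for JUND and 0.08 for FOSB. The part of array brightness in the levels of JUNB, IER2, JUN and FOS was not tested.

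EGR1 ran from 7.53 to 8.44 on the 18 U2932 arrays. Its group means lay between 7.76 ± 0.23 (YK-R 8 h) and 8.32 ± 0.15 (YK-S 4 h) under the signal table's names (SD, n = 3 each). DUSP2 ran from 7.44 to 9.32, the highest value being on DMSO 4 h replicate 2. IER2 ran from 4.39 to 5.75. The genes most like EGR1 over these arrays, of 11275 compared, were CIRBP (r = 0.92), MOB4 (0.91), B4GALT4, CCL3L3 and SLC7A6 (0.89 each). For JUND, chosen after its values were seen, they were LARP1B and SLC44A2 (0.97 each), COBLL1, ZNF800 and ZNF215 (0.96 to 0.95).

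With quantile normalization, the members in which the lines differed most were JUN and EGR1. JUN lay at 6.39 to 8.94 on the 12 TMD8 arrays, against 4.15 to 6.28 on the 18 U2932 arrays, and was above background on 12 of 12 and on 4 of 18. EGR1 lay at 5.70 to 6.33 in TMD8, against 7.53 to 8.44 in U2932. These ranges of quantile-normalized levels do not overlap and do not depend on which U2932 names are right; 13.7% of kept probes were apart in the same way. The deposited signals of EGR1 did overlap, at 170 to 253 in TMD8 and 90 to 543 in U2932. Over the 4 groups given a compound, under the signal table's names, TMD8 minus U2932 was log2 2.74 for JUN (SE 0.24, limma adjusted p = 1.8e-10) and -2.06 for EGR1 (SE 0.09, limma adjusted p = 7.4e-17). Scaling the arrays by their medians in place of quantile normalization gave 3.55 for JUN and -0.84 for EGR1, both still called, with the median of all probes at 0.67. Every TMD8 array was brighter than every U2932 array (mean signals of 419.6 to 494.1 against 85.4 to 340.9), so line and array brightness cannot be told apart. The fit behind these p-values used 1 spread per probe for both lines, although the U2932 arrays spread more widely. At 8 h JUN was above background on none of the U2932 arrays given a compound, under either set of names. TMD8 was at least 8.85-fold higher with YK-S and at least 11.5-fold higher with YK-R by the signal table's names, and at least 8.93-fold and at least 8.66-fold higher by the value table's. At 4 h with YK-R it was at least 2.23-fold higher by the signal table's names; by the value table's names 1 of the 3 U2932 arrays was above background, so that no bound is given. These bounds set the TMD8 mean against the lowest signal that counts as above background on the U2932 arrays.

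Other members were called too under the signal table's names: FOSB at -1.28 (SE 0.28, limma adjusted p = 0.00033), JUNB at 0.62 (SE 0.22, limma adjusted p = 0.020) and EGR3, an EGR1 relative, at -0.63 by probe ILMN_1722781 (SE 0.13, limma adjusted p = 0.00013). By its other probe, ILMN_1724280, EGR3 was at -0.12 (-0.36 to 0.13), so its probes disagree. Probe ILMN_1722781 was above background on 0 of 12 TMD8 and 10 of 18 U2932 arrays, and the JUNB probe on 12 of 12 and 12 of 18. JUND was at 0.20 (-0.13 to 0.53), IER2 at 0.26 (-0.05 to 0.56) and DUSP2 at -0.29 (-0.68 to 0.10); under median scaling all 3 were called higher in TMD8, at 1.49, 0.85 and 1.15, so that DUSP2 changed sign. In all 5 of 9 member probes were called, 2 higher and 3 lower in TMD8, near the 52.7% of all 25404 kept probes. With the U2932 arrays under the value table's names and the same normalized signals, 4 of 9 were called, where 55.5% of kept probes were. These were JUN at 2.72, EGR1 at -2.02, FOSB at -1.44 and EGR3 at -0.61 by probe ILMN_1722781, while JUNB at 0.55 was no longer called (limma adjusted p = 0.051). Median scaling under those names left JUN called at 3.51 and EGR1 uncalled at -0.54 (limma adjusted p = 0.16), as the median of all probes moved to 0.79. There JUND (1.64), DUSP2 (1.35) and JUNB (1.23) differed more than EGR1. Under the signal table's names the change with time did not pass as different between the lines for any of 9 members, with YK-S (0.00787% of probes) or YK-R (0.00394%), and 4 and 2 members were at an unadjusted p under 0.05. JUN was at 1.92 (0.54 to 3.30) and 1.59 (0.21 to 2.97) in that comparison. Under the value table's names JUND passed with YK-S, at 1.06 (SE 0.24, limma adjusted p = 0.042), the 1 of 9 members called where 0.484% of probes were. With YK-R 2 of 9 passed, where 0.783% of probes did, JUND at 1.17 (SE 0.24, limma adjusted p = 0.023) and FOSB at 2.13 (SE 0.51, limma adjusted p = 0.046). These positive values mean a change with time that lay higher in TMD8 than in U2932. With median scaling under those names 0 of 9 members passed with either form, JUND being at 0.12 and 0.25 and FOSB at 0.65 with YK-R. The median of all probes moved there to -0.37 with YK-S and -0.46 with YK-R. The SE was 0.93 for JUND and 0.89 for FOSB. The comparison of changes and the fits under the value table's names were added after values had been seen.

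**Figure D5:**
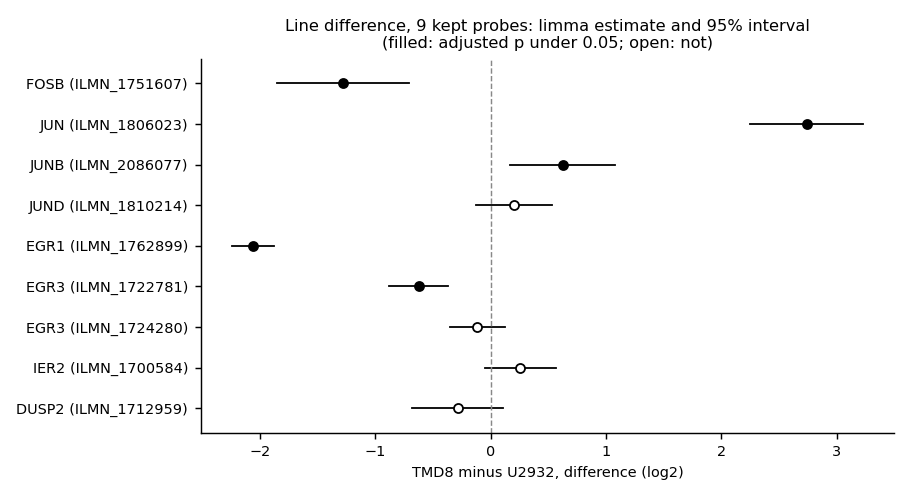
Log2 difference of TMD8 minus U2932 (horizontal axis) over the 4 groups given a compound for the 9 kept member probes under the signal table's names, with limma estimates as points and 95% intervals as lines; filled points passed the test. JUN lies at 2.74 and EGR1 at -2.06, and the probes of EGR3 differ from each other.

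Of all 25404 kept probes 52.7% were called between the lines, 7568 higher and 5832 lower in TMD8, and the counts of the lists stand beside that share. Among the other immediate early genes, given under the signal table's names alone, 15 of 26 tested were higher and 4 lower in TMD8, with a median of 0.52 against 0.05 over all probes. KLF2 was at 4.50, the kinase SGK1 at 2.92, PHLDA1 at 2.90 and the stress factor ATF3, which pairs with JUN, at 2.68. Of 9 AP-1 partners 4 were higher and 2 lower, BATF at 2.87, BATF3 at 2.08, JDP2, a JUN dimerization partner, at 0.86 and CREM at -1.09. Of 14 MAP kinase feedback genes 5 were higher and 2 lower, the phosphatase DUSP5 at 4.31, SPRED1 at 1.83 and DUSP10 at -0.68. Among 18 upstream regulators 8 were higher and 4 lower, serum response factor (SRF) at -1.07 and its coactivators MRTFB at 1.59 and MRTFA at 1.10. Medians of the AP-1 partners, feedback genes and regulators were 0.26, 0.01 and 0.23.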

How the data were processed

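RNA of 30 samples was hybridised to Illumina bead arrays and read with GenomeStudio, per the submitters' processing notes (version not given). The deposited signals are intensity values per probe that showed no sign of normalization. The deposited log2 values share 1 distribution within TMD8 and another within U2932; their base and method are not given in the sources used here and were read from the values. Of the probes 30113 had 1 gene symbol, 8 had several and 17110 had none in the platform annotation.

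The signal table holds no control probes or detection p-values. Background was therefore set per array at the mode of the log2 density, with its SD from the signals under the mode, and a probe was above background at a normal tail p under 0.05. Signals went through normexp, an offset of 16, log2 and quantile normalization of the 30 arrays together. limma 3.58.1 (R 4.3.3) was fitted per line (8 and 12 residual degrees of freedom) or, between lines, on 30 arrays (20), with Benjamini-Hochberg adjustment over all kept probes; intervals are 95%. It was checked on simulated data. Members, lists and tests were chosen with earlier results of these data known. Of each list, called genes were named, up to the 4 of largest change, or otherwise the 2 of lowest p. The number of arrays limits the precision. Alternatives were median scaling, other background corrections and filters, array weights, 1 fit of all arrays, the brightest probe per gene, the value table and leaving out arrays.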

Additional observations from a re-analysis of the deposited data

Results flagged for a closer look

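The change from 4 h to 8 h differed between the lines for JUND and FOSB when the U2932 arrays carried the value table's names, by limma's test of the difference itself. TMD8 minus U2932 in that change was 1.06 log2 for JUND with YK-S, 1.17 for JUND with YK-R and 2.13 for FOSB with YK-R. Under the signal table's names with quantile normalization, and with median scaling under the value table's names, no member passed this test, and which names are right was not settled.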

How the results depend on the processing

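The counts of called members in the TMD8 comparisons stayed at 0 under all 16 other settings run for each, and under 22 for the difference between forms in the change with time. In U2932 0 members were called under the signal table's names, and other settings moved this. Median scaling gave 3 for 8 h minus 4 h with YK-R, 1 with DMSO, 8 of 9 for the line difference and 1 for the line difference in the change with YK-R; it also moved the median of all probes to 1.18, 1.02, 0.67 and -0.95 in these comparisons, against 0.13, 0.11, 0.05 and -0.10. Array weights, whose estimate stopped short of its tolerance, gave 3 for YK-S minus YK-R at 4 h, 5 and 4 for 8 h minus 4 h with YK-S and YK-R, 8 for the line difference and 4 for its change with YK-S. A fit of all 30 arrays gave 1 (JUNB, at -1.43) for YK-R minus DMSO at 4 h and 2 (FOSB and JUND) for 8 h minus 4 h with YK-S. The value table's names and values gave 1 for YK-R minus DMSO at 4 h and 1, 2 and 1 for 8 h minus 4 h with YK-S, YK-R and DMSO; the normalized signals under those names, added after seeing the data, gave 0 for YK-R minus DMSO at 4 h and again 1, 2 and 1 for the comparisons of time, and median scaling under those names 0 for all 4. For the line difference they gave 4 in place of 5, and for its change with time 1 with YK-S and 2 with YK-R; median scaling under those names gave 7, 0 and 0, with EGR1 no longer called in the line difference. Only probes above background on every array left 3 members in the line difference, of which 1 was called, as fewer were tested. Without 1 array the counts ran from 0 to 2 for YK-S minus DMSO at 4 h and from 0 to 3 for YK-R minus DMSO at 4 h; the highest came without DMSO 4 h replicate 3, which called JUNB (-1.33 and -2.26) and DUSP2 (-0.96 and -1.32) in both and IER2 (-0.86) with YK-R. Apart from the setting with fewer probes, the cause was not tested. EGR1, called higher at 8 h under median scaling (1.53 with YK-R and 1.91 with DMSO), was at -0.40 and 0.14 otherwise. No member called in the line difference changed direction. No paired analysis was made because the labels give the arrays no replicate numbers. Those used here only follow the order of the samples. In TMD8 the level of DUSP2 fell from replicate 1 to replicate 3 in every group. Whether arrays of the same number share spread was not tested, and the fits did not model it. Fits without the dim arrays gave no value where DMSO 4 h or YK-R 4 h was needed. Signals near background limit FOS, FOSB and EGR3 in TMD8 and FOS, JUN, JUNB and EGR3 in U2932.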
